A study of Mus musculus with 3 samples.

Results

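The cells described here are macrophage-type cells of 3 MMTV-PyMT mammary tumours, gated by transcripts of Adgre1, which encodes the macrophage surface protein F4/80, and Cx3cr1, the receptor for fractalkine. A cell was a member where it held at least 2 transcripts of Adgre1 and Cx3cr1 together and at most 1 of Cd163, Folr2 and Ccl8 together, genes known from resident-type tissue macrophages. The members were thus chosen by measured values of these 5 genes. Of 1747403 kept cells in all, 47098 met the rule. They numbered 26460 of 619770 cells in tumour 1, 15031 of 453995 in tumour 2 and 5607 of 673638 in tumour 3.

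One formalin-fixed section per tumour was imaged on the MERSCOPE platform, which uses multiplexed fluorescence in situ hybridization to count single transcripts within outlined cells. All 3 sections are titled MMTV-PyMT WT, carry no treatment and form 1 group, so the tumour is the replicate (n = 3). MMTV-PyMT mice express the polyoma middle T oncogene from a mammary promoter and develop mammary carcinomas. The labels used here say neither what WT refers to nor how old the animals were. The tables hold 258 genes and 27 blank codes, which match no gene and count false decoding.

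Macrophages take up debris and microbes, present peptides on MHC class II molecules and secrete cytokines and matrix-active factors. Some populate a tissue before birth and others arise from blood monocytes, and in mouse mammary tumours macrophages of monocyte origin are known to accumulate as the tumour grows. Growth factor signalling through the Csf1 receptor sustains them, and the transcription factor Spi1 (PU.1) shapes their lineage.

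The gated cells made up 4.27% of kept cells in tumour 1, 3.31% in tumour 2 and 0.832% in tumour 3, a mean of 2.80% ± 1.77 (SD, n = 3). Tumour 3 lay well below both others. Counting depth touches this share, because gated cells held a median of 125, 148 and 129 panel transcripts in tumours 1, 2 and 3, against 96, 105 and 94 in other kept cells. With each cell thinned to 60 transcripts, the shares were 2.11%, 1.46% and 0.329%, against 4.80%, 3.82% and 0.973% in the same cells unthinned, and the order of the tumours was kept. Thinning left out 145908, 105618 and 186080 shallower cells.

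A blank control was run through the first condition of the gate. The pair of blank codes with the highest totals reached 2 or more counts in 0.734%, 0.728% and 0.528% of kept cells of tumours 1, 2 and 3. In tumour 3 that share is close to the share of gated cells, although the blank pair there had slightly more counts in total (57000) than Adgre1 and Cx3cr1 together (54149). At 4 or more transcripts the gate held 7385, 3937 and 746 cells, against 134, 248 and 227 cells for the blank pair. Values of tumour 3 therefore rest on a gate with less margin over false decoding.

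Cx3cr1 carried most of the gate. Cells with Cx3cr1 and no Adgre1 made up 66.1%, 71.4% and 73.6% of the gated cells in tumours 1, 2 and 3, cells with both genes 32.0%, 27.3% and 24.3%, and cells with Adgre1 alone 1.91%, 1.40% and 2.09%. Exactly 2 gate transcripts were found in 51.6%, 55.0% and 71.1% of gated cells. By construction of the rule, Cx3cr1 reached 17.2 ± 2.30 and Adgre1 2.43 ± 0.593 per 1000 panel transcripts in gated cells, against 0.663 ± 0.203 and 0.120 ± 0.0414 in other kept cells (SD, n = 3). These levels chose the members and support nothing else.

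Several genes outside the gate followed the number of gate transcripts. H2-Aa, a chain of MHC class II, was at 1.63 ± 0.915 per 1000 in cells just outside the threshold, with 1 gate transcript, and at 3.65 ± 1.81 in cells just inside it, with 2. It stood at 6.33 ± 2.90 with 3 gate transcripts, 9.82 ± 3.85 with 4 to 5 and 16.6 ± 8.99 with 6 or more. In the bin of 6 or more, tumour 2 had the highest H2-Aa level (26.2) and a highest blank of 2.21. The highest blank there was 0.467 in tumour 1 and 0.479 in tumour 3. Spi1 ran from 0.402 ± 0.0989 with 1 gate transcript through 0.907 ± 0.155 with 2 to 3.55 ± 0.208 with 6 or more. The epithelial transcription factor Sox9 moved the other way, at 44.6 ± 3.04 with 1, 40.7 ± 4.54 with 2 and 28.5 ± 4.13 with 6 or more. For these genes, cells at the threshold thus lay between the cells with 1 gate transcript and those with many. Krt5, a basal keratin, did not follow this order, at 7.45 ± 3.63 with 1, 9.79 ± 4.52 with 2 and 5.68 ± 3.90 with 6 or more. Median depth varied little from 1 gate transcript upward, between 114 and 153 transcripts over all bins and tumours.

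**Figure D1:**
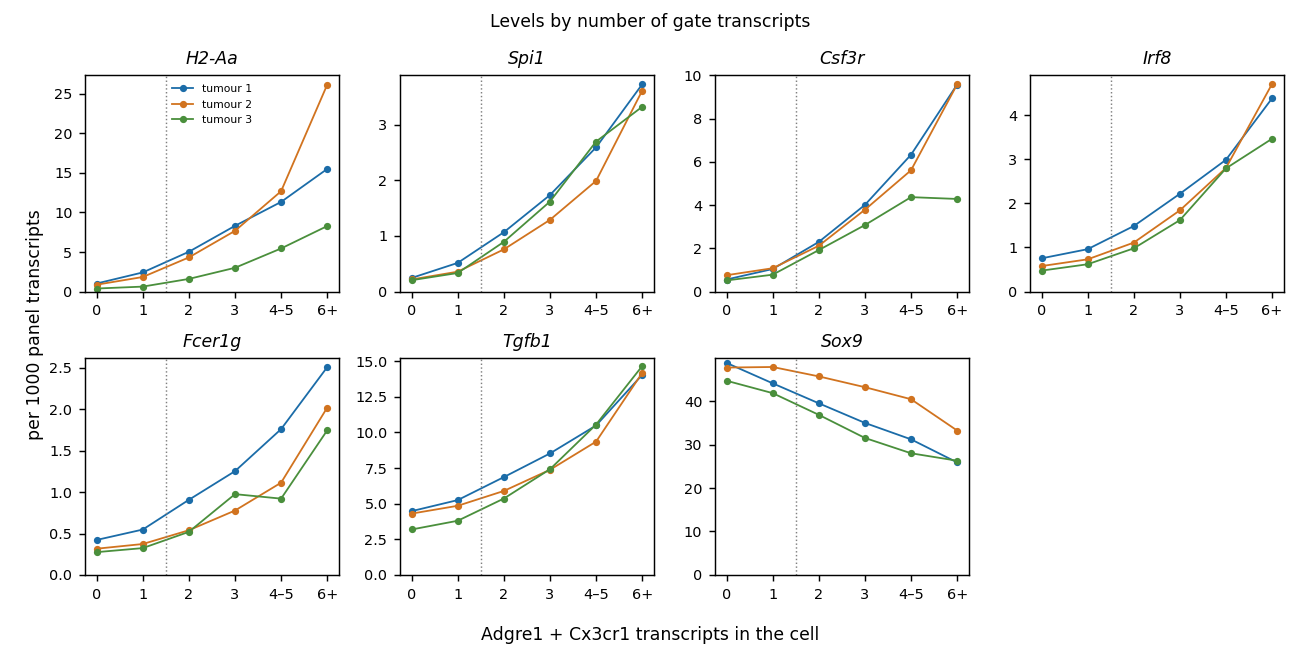
Levels of 7 genes outside the gate, in counts per 1000 panel transcripts, by the number of Adgre1 and Cx3cr1 transcripts in the cell, 1 line per tumour. Cells right of the dotted line are gated. H2-Aa, Spi1, Csf3r, Irf8, Fcer1g and Tgfb1 are higher at 6 or more transcripts than at 2 in all 3 tumours, while Sox9 is lower.

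The label was set against 7 panel genes of blood-derived cells, which were picked after their values were seen and so describe the cells without testing the label (Spi1, Ptprc, Fcer1g, Csf3r, H2-Aa, H2-Eb1 and Irf8). At least 1 of their transcripts was present in 73.9%, 75.8% and 56.4% of gated cells in tumours 1, 2 and 3, against 28.3%, 29.5% and 20.01% of other kept cells. Among cells with 4 or more gate transcripts the shares were 89.2%, 93.4% and 82.3%. These shares were not matched for depth. Single genes were rarer in gated cells, with Ptprc in 7.37%, 9.51% and 3.25% and H2-Aa in 41.7%, 49.1% and 19.8%. In other kept cells Ptprc was present in 2.15%, 2.91% and 1.71%. H2-Aa alone, with every cell thinned to 60 transcripts, was found in 27.7%, 31.1% and 11.1% of gated cells, against 5.82%, 5.24% and 2.25% of other cells. A minority of gated cells thus held none of the 7 genes. Transcripts of other cell types were common in them: 41.0%, 33.7% and 31.9% of gated cells held at least 5 transcripts of 6 fibroblast genes, among them Col1a1 and Postn, against 23.0%, 25.4% and 16.8% of all kept cells. At least 3 transcripts of the basal keratins Krt5, Krt14 and Krt15 were found in 16.9%, 8.38% and 11.0% of gated cells, against 9.04%, 5.03% and 6.25% of all kept cells. The fibroblast and keratin shares were not matched for depth either, and gated cells were the deeper ones. Fewer cells of a type and less RNA per cell cannot be told apart in a summed level.

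For tests, counts were summed per tumour over gated cells and over all other kept cells and compared with tumour as a block (edgeR quasi-likelihood test, Benjamini-Hochberg adjusted p under 0.05), without the 5 genes of the rule. Of 253 genes tested, 100 passed (39.5%), 55 higher (21.7%) and 45 lower (17.8%) in gated cells. The split depended on the scaling: DESeq2 gave 55 higher and 83 lower, library size alone 66 and 26, and scaling by cell volume 98 and 16, with the median of all genes at -0.06, 0.08 and 0.18 on the log2 scale. Without tumour 3, 52 genes passed. Levels below are counts per 1000 panel transcripts, and a gene counts as above background where, in each of the 3 tumours, its sum was greater than the sum of any blank. In other kept cells Spi1, H2-Eb1, Cd83, Cd4 and Fcer1g exceeded the highest blank in no tumour. H2-Aa, Lag3 and Tnf did so there in 2 of 3 tumours. The fold changes of these genes are thus partly set against levels within the range of the blanks.

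The largest log2 fold change belonged to an antigen presentation gene. H2-Aa stood at 7.94, 8.55 and 2.42 in gated cells of tumours 1, 2 and 3, against 1.26, 1.01 and 0.404 in other kept cells. The groups did not overlap, and tumour 3 was lowest in both. The log2 fold change was 2.73 ± 0.12 (SE, adjusted p = 3.92e-13). H2-Eb1, a second class II chain, averaged 0.648 ± 0.198 in gated cells and 0.208 ± 0.0299 in other cells, a log2 fold change of 1.56 ± 0.12 (adjusted p = 2.06e-09). Both panel genes of class II thus rose. Cd83, a surface protein of activated antigen-presenting cells, rose by a log2 fold change of 1.57 ± 0.12 (adjusted p = 2.06e-09).

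Lineage factors and receptors of myeloid cells also rose. Spi1 had 1.76, 1.35 and 1.26 in gated cells of the 3 tumours, against 0.296, 0.246 and 0.217 in other cells, with no overlap and a log2 fold change of 2.48 ± 0.13 (adjusted p = 3.03e-12). Csf3r, the G-CSF receptor that neutrophils and also monocytes carry, had 4.15, 3.75 and 2.40 in gated cells, against 0.648, 0.830 and 0.542 in other cells, a log2 fold change of 2.29 ± 0.13 (adjusted p = 1.28e-11). The neutrophil alarmins S100a8 and S100a9 were not above background in any tumour and did not pass (adjusted p = 0.175 and 0.761). Irf8, a factor of monocyte and dendritic cell development, averaged 1.81 ± 0.445 in gated cells and 0.628 ± 0.153 in other cells, a log2 fold change of 1.48 ± 0.12 (adjusted p = 5.24e-09). Fcer1g, the shared signalling chain of Fc receptors, rose by 1.33 ± 0.12 on the log2 scale (adjusted p = 2.66e-08).

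Csf1, the growth factor ligand, was lower in gated cells, at 3.94 ± 1.41 against 4.71 ± 1.48 in other cells (log2 fold change -0.32 ± 0.10, adjusted p = 0.0135). It did not pass without tumour 3 (-0.26, adjusted p = 0.283) or per cell volume (-0.14, adjusted p = 0.294).

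**Figure D2:**
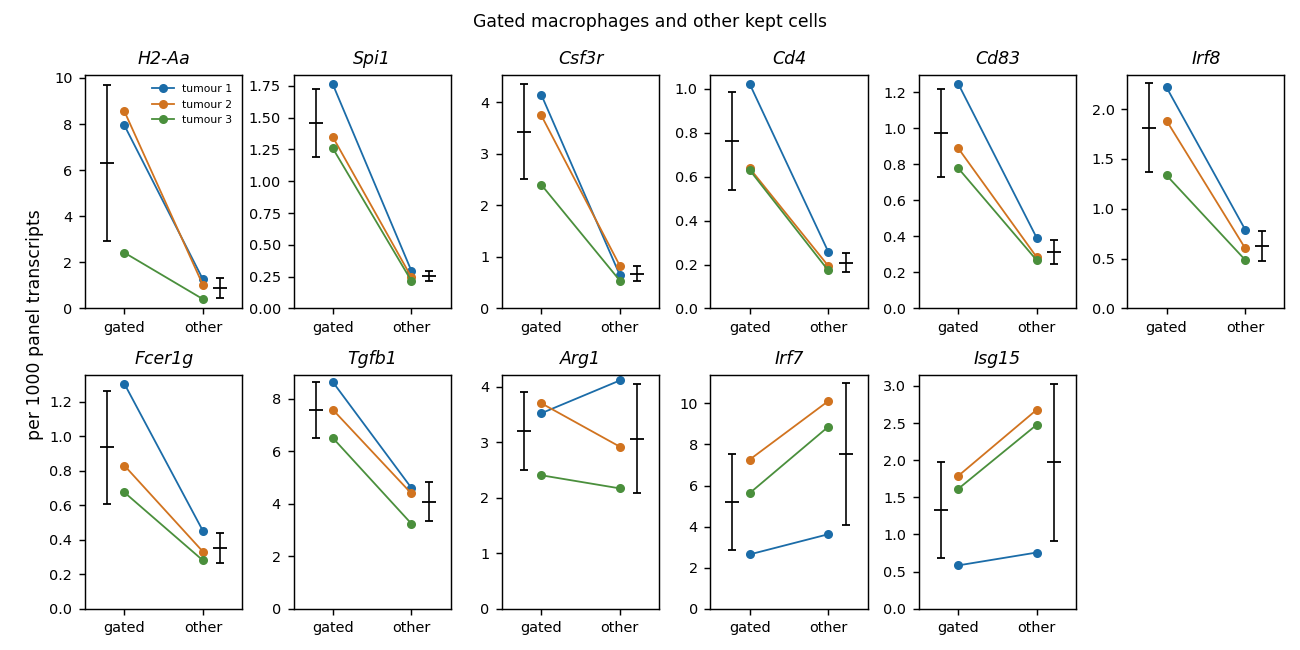
Counts per 1000 panel transcripts of 11 genes in gated macrophages (left in each panel) and other kept cells (right), 1 line per tumour, with mean and SD over 3 tumours as black bars. H2-Aa, Spi1, Csf3r, Cd4, Cd83, Irf8, Fcer1g and Tgfb1 are higher in gated cells in every tumour, Irf7 and Isg15 are lower, and Arg1 differs in direction between tumours.

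Of 16 T or NK cell markers on the panel, 7 rose and 1 fell in gated cells, where 21.7% of all genes tested rose and 17.8% fell. Only Cd4 and Lag3 of these markers were above background. Cd4, a T helper coreceptor also found on some myeloid cells, had 1.02, 0.638 and 0.630 in gated cells, against 0.258, 0.194 and 0.173 in other cells (log2 fold change 1.81 ± 0.11, adjusted p = 8.02e-11). Lag3, a class II binding checkpoint receptor, rose by 1.35 ± 0.13 on the log2 scale (adjusted p = 7.69e-08). Cd3g, which defines T cells, rose by 0.62 ± 0.11 (adjusted p = 0.000126) but exceeded the highest blank in 1 of 3 tumours, and Cd8a did not pass (adjusted p = 0.542). The summed level of the 16 markers was 4.61 to 6.83 in gated cells and 3.08 to 3.82 in other cells. The part of T cells in these values was not tested.

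Some cytokine and receptor genes rose as well. Tgfb1, an immune-suppressive cytokine, had 8.63, 7.57 and 6.50 in gated cells of tumours 1, 2 and 3, against 4.60, 4.39 and 3.24 in other cells, a log2 fold change of 0.85 ± 0.09 (adjusted p = 3.17e-07). Il4ra, a receptor chain for the type 2 cytokines, rose by 0.997 ± 0.127 on the log2 scale (adjusted p = 2.7e-06). Of 15 inflammatory genes 8 rose and none fell, where 21.7% of all genes tested rose and 17.8% fell. Their median log2 fold change was 0.39, beside 0.0028 over all genes tested. Only Tnf, Tnfrsf1b, Nfkb1 and Nfkbia of this list were above background in gated cells, and Nfkb1 and Nfkbia did not pass. Tnf averaged 1.09 ± 0.538 in gated cells and 0.680 ± 0.446 in other cells (log2 fold change 0.73 ± 0.13, adjusted p = 0.000128), and Tnfrsf1b, a TNF receptor, rose by 0.76 ± 0.10 (adjusted p = 4.06e-06). Il1b rose by 1.52 ± 0.13 (adjusted p = 6.44e-09), above background in 2 of 3 tumours.

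Several genes often used to describe macrophage states did not pass. Arg1, the arginase of alternatively activated macrophages, had 3.52, 3.70 and 2.40 in gated cells, against 4.11, 2.92 and 2.17 in other cells (log2 fold change 0.04 ± 0.12, adjusted p = 0.796). It was lower in tumour 1 and higher in tumours 2 and 3. Against only those other cells that lay within 25 µm of a gated cell, Arg1 was lower (log2 fold change -0.24, adjusted p = 0.0173). The lipopolysaccharide coreceptor Cd14 (adjusted p = 0.207), the class I gene H2-K1 (adjusted p = 0.905), and Nfkb1 and Nfkbia of the NF-kB pathway (adjusted p = 0.309 and 0.761) did not pass either. Of the 3 monocyte markers, Ly6c2, Ccr2 and Plac8, none passed and none was above background. Under other settings some were higher: 2 per cell volume, and 1 each with 4 or more gate transcripts, in cells of 80 to 160 transcripts and by library size alone.

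Epithelial and Wnt genes were among those lower in gated cells. For the lists below, 17.8% of all genes tested fell and 21.7% rose. All 6 epithelial markers fell, though only 1 of them passed per cell volume, and only 1 without tumour 3, with Krt7 at 0.827 ± 0.234 in gated cells and 1.10 ± 0.209 in other cells (log2 fold change -0.47 ± 0.13, adjusted p = 0.00612) and Sox9 at 37.9 ± 4.55 against 46.5 ± 1.91 (-0.35 ± 0.09, adjusted p = 0.00511). Krt7 did not pass without tumour 1 (adjusted p = 0.133) or tumour 2 (adjusted p = 0.0601), nor Sox9 without tumour 3 (adjusted p = 0.194). Of 7 Wnt ligands 3 fell and none rose, while per cell volume 2 fell and 1 rose, and without tumour 2 only 1 fell. Wnt5b and Wnt7b fell by 0.52 and 0.51 on the log2 scale (adjusted p = 0.000111 and 0.00593), and Wnt7b did not pass without tumour 1 (-0.28, adjusted p = 0.19) or tumour 2 (adjusted p = 0.111). The 6 epithelial markers summed to 106 to 123 per 1000 in gated cells and 136 to 142 in other cells. Of 8 fibroblast markers 4 rose and 1 fell, and of 6 basal markers 2 rose and none fell; without tumour 1, and likewise without tumour 3, only 1 rose in each list. Col1a1 was at 66.9 ± 11.4 in gated cells and 43.1 ± 7.27 in other cells (log2 fold change 0.59 ± 0.12, adjusted p = 0.000633), but did not pass without tumour 3 (0.40, adjusted p = 0.0859) and was at 0.89 without tumour 2. Krt5 was at 8.93 ± 4.07 in gated cells and 5.13 ± 2.24 in other cells (0.74 ± 0.09, adjusted p = 1.67e-06). Among gated cells its level was lower with 6 or more gate transcripts (5.68 ± 3.90) than with 2 (9.79 ± 4.52). How much of these transcripts came from adjoining cells was not tested.

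Of 7 interferon-response genes 5 fell and none rose, where 17.8% of all genes tested fell and 21.7% rose. By library size alone 2 fell, and without tumour 3 2 fell and 1 rose. Irf7, the factor that amplifies the response, had 2.65, 7.26 and 5.63 in gated cells of tumours 1, 2 and 3, against 3.63, 10.1 and 8.86 in other cells, a log2 fold change of -0.58 ± 0.09 (adjusted p = 6.61e-05). Isg15, a ubiquitin-like protein induced by interferon, fell by 0.57 (adjusted p = 0.000742). Position moved with these values. Against other cells within 25 µm of a gated cell, Irf7 differed by -0.21 (adjusted p = 0.0422), Isg15 by -0.12 (adjusted p = 0.349), Ifit3 by 0.0068 (adjusted p = 0.98) and Mx1 by 0.22 (adjusted p = 0.0476).

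Set against neighbouring cells in this way, 98 of the 100 genes kept their sign and 86 passed again. H2-Aa then had a log2 fold change of 2.50 and Spi1 of 2.32. In cells of 80 to 160 transcripts, which matches depth, H2-Aa had 3.23 and Spi1 2.97. Per cell volume, H2-Aa had 2.90 and Spi1 2.65.

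Resident-type cells, with at least 2 transcripts of Cd163, Folr2 and Ccl8 and at most 1 gate transcript, numbered 4136, 3594 and 4030 in tumours 1, 2 and 3. Between gated macrophages and these cells 63 of 253 genes passed (24.9%), 26 higher (10.3%) and 37 lower (14.6%) in gated cells. No blank control was run for the resident-type gate. In resident-type cells Tgfb1, at 4.35 ± 1.04, exceeded the highest blank in only 2 of 3 tumours, as did H2-Aa, Arg1, Il4ra and Csf3r. Spi1 did so in 1 tumour and Tnf in none. H2-Aa had 7.94, 8.55 and 2.42 in gated cells, against 3.70, 1.45 and 0.451 in resident-type cells (log2 fold change 1.97 ± 0.20, adjusted p = 2.31e-07). The groups overlapped across tumours, and H2-Aa was higher in gated cells within each. Tnf rose by 1.07 ± 0.19 (adjusted p = 0.000173) and Arg1, at 3.21 ± 0.702 in gated cells and 2.03 ± 0.667 in resident-type cells, by 0.62 ± 0.16 (adjusted p = 0.00679). Without tumour 2 Arg1 did not pass (0.35, adjusted p = 0.271).

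Lower in gated cells were Lyve1, a hyaluronan receptor of perivascular macrophages and lymphatic endothelium (-2.10 ± 0.31, adjusted p = 1.52e-05), and Il4ra (-0.55 ± 0.15, adjusted p = 0.00935). Lyve1 was at -1.39 without tumour 1, and Il4ra did not pass without tumour 1 or tumour 2 (adjusted p = 0.157 and 0.194). Of 8 fibroblast markers 7 fell, among them Clec3b (-2.56 ± 0.24, adjusted p = 8.1e-08) and Col1a1, at 66.9 ± 11.4 in gated cells and 134 ± 52.9 in resident-type cells (-0.99 ± 0.30, adjusted p = 0.0204). Of this list 3 fell without tumour 1 and 3 without tumour 2, and Col1a1 passed in neither (log2 fold change -0.91 and -0.61, adjusted p = 0.28 and 0.701). The fibroblast list summed to 64.6 to 90.9 per 1000 in gated cells and 82.6 to 197 in resident-type cells. Neither Lyve1 nor Clec3b met the conditions for named genes, which are 1 sign and resident-type sums above the highest blank in all 3 tumours. Spi1 and Csf3r were higher in gated cells by 1.02 and 0.97 (adjusted p = 0.000452 and 1.86e-05), but with at least 3 resident-type transcripts required they turned to -0.39 and -0.31 (adjusted p = 0.287 and 0.417). H2-Aa, Tnf and Arg1 kept their direction there, at 1.14, 1.56 and 1.66.

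Class II cells, with at least 3 H2-Aa transcripts and none of the 5 rule genes, numbered 2218, 1344 and 288. H2-Aa chose them and was left out. Of 252 genes 37 passed (14.7%), 12 higher (4.76%) and 25 lower (9.92%) in gated macrophages. Csf3r was at 4.15, 3.75 and 2.40 in gated cells, against 2.15, 1.88 and 1.43 in class II cells, without overlap (log2 fold change 0.91 ± 0.11, adjusted p = 4.17e-06). Arg1 rose by 0.64 ± 0.12 (adjusted p = 0.000278) and the basal keratin Krt5 by 1.02 ± 0.08 (adjusted p = 1.83e-08). Genes of dendritic cells were lower in gated macrophages, Irf8 at -0.73 ± 0.11 (adjusted p = 5.28e-05) and the homing receptor Ccr7 at -1.22 ± 0.16 (adjusted p = 6.73e-06, above background in no tumour in gated cells). Ccr7 missed the conditions for named genes, which are 1 sign and class II cell sums above the highest blank in all 3 tumours. Of the 7 interferon genes 5 fell, with Mx1 at 0.619 ± 0.252 in gated cells and 1.66 ± 0.758 in class II cells (-1.38 ± 0.15, adjusted p = 7.23e-07). Spi1 (adjusted p = 0.143), Tgfb1 (adjusted p = 0.977) and Cd14 (adjusted p = 0.981) did not pass.

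The gated cells themselves were then split by a cut-off on H2-Aa, at 2 or more transcripts against 0. H2-Aa reached 2 or more transcripts in 23.4%, 28.4% and 8.06% of gated cells of tumours 1, 2 and 3, against 1.98%, 1.77% and 0.315% of other kept cells, and was at 0 in 58.3%, 50.9% and 80.2% of gated cells. Median depth was nearly equal in H2-Aa positive and negative cells, at 128, 150 and 126 transcripts against 123, 146 and 129. The groups were not matched for gate transcripts. Among cells with 4 or more of these, H2-Aa reached 2 or more in 35.6%, 51.3% and 21.4%. The part of gate transcript number in the differences below was not tested. With H2-Aa left out, 48 of 252 genes passed (19.0%), 28 higher (11.1%) and 20 lower (7.94%) in positive cells. Without tumour 2, 22 were higher and only 4 lower.

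H2-Eb1 had 1.45, 1.73 and 1.899 in H2-Aa positive cells, against 0.286, 0.417 and 0.277 in negative cells (log2 fold change 2.36 ± 0.19, adjusted p = 2.17e-29). Il1b, the inflammasome cytokine, had 0.813, 1.26 and 1.28 in positive cells, against 0.287, 0.330 and 0.390 in negative cells (1.71 ± 0.19, adjusted p = 4.24e-16). Neither gene overlapped between the groups, and in negative cells neither exceeded the highest blank in any tumour. Spi1 rose by 1.14 ± 0.16 (adjusted p = 4.71e-10), Irf8 by 1.03 ± 0.16 (adjusted p = 4.86e-09), Cd83 by 1.11 ± 0.18 (adjusted p = 2.54e-08) and the TGF-beta receptor Tgfbr1 by 1.18 ± 0.18 (adjusted p = 1.51e-08). Of 15 inflammatory genes 7 rose and none fell, and without tumour 3 4 rose. Over all gated cells, only Tnf, Tnfrsf1b, Nfkb1 and Nfkbia of this list were above background.

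Arg1 went the other way, at 2.72, 2.22 and 2.25 in positive cells, against 3.90, 4.73 and 2.41 in negative cells (-0.61 ± 0.15, adjusted p = 0.000379). It was lower in positive cells in each tumour, least so in tumour 3, and without tumour 2 it did not pass (-0.30, adjusted p = 0.278). Of 6 basal markers 4 fell, with Krt5 at 6.44 ± 3.16 in positive and 10.1 ± 4.44 in negative cells (-0.71 ± 0.13, adjusted p = 1.88e-06) and Krt17 at a log2 fold change of -0.85 ± 0.16 (adjusted p = 3.57e-06). Without tumour 2 only 1 of the 6 fell, and Krt17 did not pass (-0.49, adjusted p = 0.0567). Cldn4, a tight junction protein, and the proliferation gene Mki67 fell too, by 0.63 and 0.49 on the log2 scale (adjusted p = 2.36e-05 and 0.00263). The 6 epithelial markers summed to 82.3 to 112 in positive and 113 to 128 in negative cells, and their part in the falls was not tested.

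**Figure D3:**
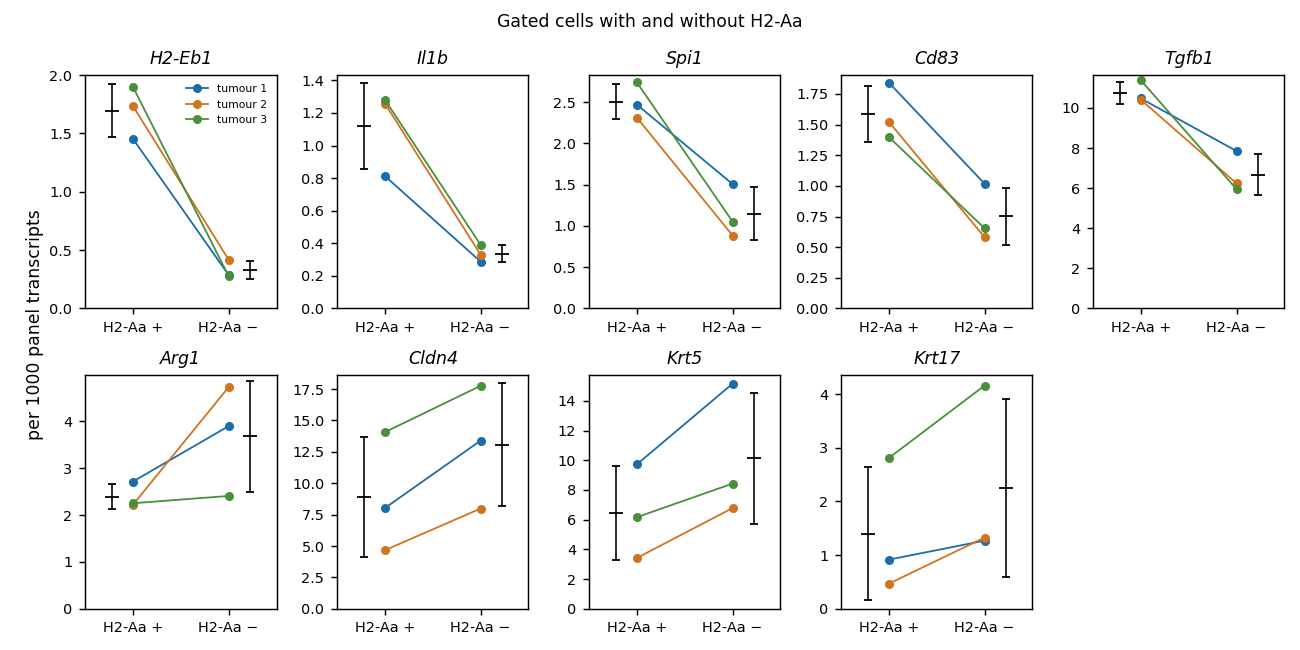
Counts per 1000 panel transcripts of 9 genes in gated cells with 2 or more H2-Aa transcripts (left) and with none (right), 1 line per tumour, with mean and SD over 3 tumours in black. H2-Eb1, Il1b, Spi1, Cd83 and Tgfb1 are higher in H2-Aa positive cells in every tumour, and Arg1, Cldn4, Krt5 and Krt17 are lower.

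Cells gated through Cx3cr1 alone and through Adgre1 alone could be set apart in 3 of 253 genes (1.19%), 1 higher (0.395%) and 2 lower (0.791%). Krt5 had 14.9, 5.98 and 8.93 in Cx3cr1-only cells, against 7.24, 3.06 and 3.17 in Adgre1-only cells (log2 fold change 1.15 ± 0.16, adjusted p = 0.00373). Fn1, the matrix protein fibronectin, was lower in Cx3cr1-only cells (-1.05 ± 0.18, adjusted p = 0.0107), as was Clec3b (-1.51 ± 0.30, adjusted p = 0.026). Clec3b missed the conditions for named genes, which are 1 sign and Adgre1-only sums above the highest blank in all 3 tumours. Adgre1-only cells numbered 505, 210 and 117, and without tumour 2 no gene passed while without tumour 3 45 did.

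Gated cells lay unevenly in the sections. In tiles of 200 µm with at least 100 kept cells, their share reached 21.4%, 22.7% and 9.09% at most, with medians of 3.25%, 2.48% and 0.598%. The tenth of tiles richest in gated cells held 25.3%, 32.2% and 29.9% of them and 9.16%, 11.9% and 8.73% of all kept cells. These tiles were chosen for their share, so the values describe the spread only. Within 150 µm of the tissue margin gated cells made up 7.27%, 5.77% and 1.28% of kept cells, against 3.81%, 3.02% and 0.802% at 500 µm or deeper. The share was higher at the margin in all 3 tumours, a mean log2 ratio of 0.85 ± 0.15 (SD, exact sign-flip permutation test, two-sided p = 0.25, the smallest that 3 tumours allow).

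**Figure D4:**
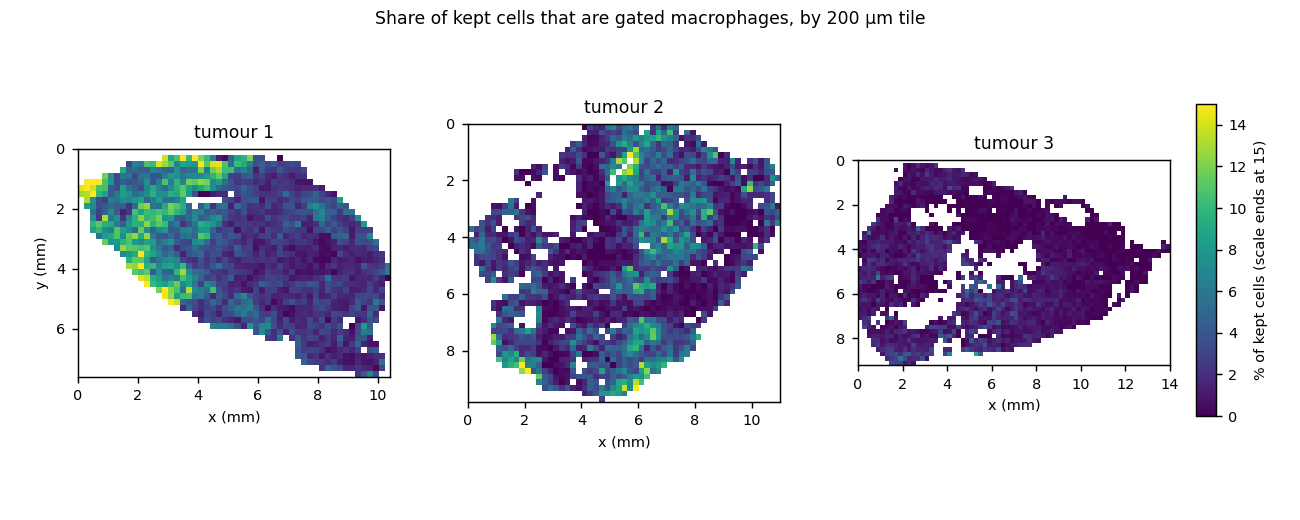
Percent of kept cells that are gated macrophages in tiles of 200 µm, with x and y in mm, for the 3 tumours. Tiles with fewer than 100 kept cells are white and the colour scale ends at 15%. Rich tiles lie along part of the margin of tumours 1 and 2, and tumour 3 is low nearly throughout, with a median of 0.598%.

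Gated cells were found beside one another. From a gated cell, the next gated cell lay a median of 13.4, 19.3 and 37.2 µm away in tumours 1, 2 and 3, against 23.7, 35.4 and 58.6 µm from any other kept cell. Gated cells made up 8.14%, 7.46% and 2.13% of neighbours within 25 µm of a gated cell, against 3.88%, 3.28% and 0.775% around other cells, a mean log2 ratio of 1.24 ± 0.20 (SD, n = 3).

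Other stromal classes were also more frequent around gated cells in all 3 tumours. The mean log2 ratio was 0.80 ± 0.21 for class II cells, 0.68 ± 0.18 for endothelial-gated cells (Pecam1, Cdh5), 0.64 ± 0.11 for pericyte-gated cells (Pdgfrb, Rgs5) and 0.46 ± 0.22 for resident-type cells. Basal keratin cells had 0.44 ± 0.12 and cells rich in collagen and other fibroblast genes 0.39 ± 0.22. Cycling cells had 0.18 ± 0.10. Interferon-response cells made up 0.663%, 4.52% and 2.74% of neighbours of gated cells, against 0.924%, 5.39% and 5.80% around other cells, a mean log2 ratio of -0.61 ± 0.43. Each of the 9 classes had 1 sign in 3 of 3 tumours and an exact sign-flip permutation p of 0.25, the smallest possible here.

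**Figure D5:**
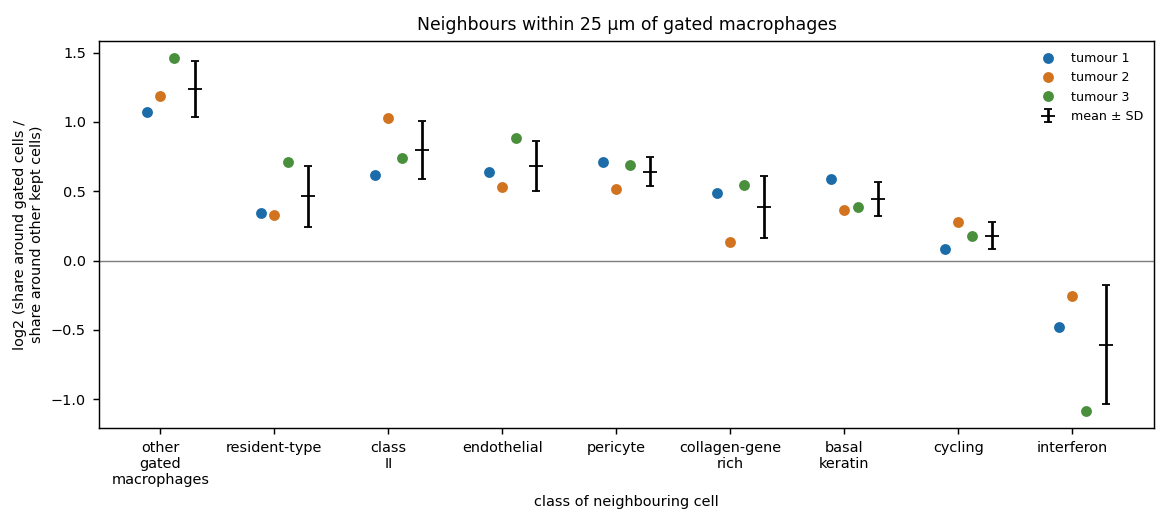
Log2 ratio of the share of each cell class among neighbours within 25 µm of gated macrophages over the share around other kept cells, with 1 point per tumour and mean ± SD in black. All classes lie above 0 in 3 of 3 tumours except interferon-response cells, which lie below 0.

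Crowded and isolated gated cells were compared next. Those with at least 2 other gated cells within 25 µm and those with none within 50 µm gave calls in 0 of 253 genes by edgeR (0%), with 30 at an unadjusted p under 0.05. Clumped cells numbered 13994, 5223 and 523 in tumours 1, 2 and 3, and single cells 830, 1607 and 1926. Their median depths were 134, 153 and 133 transcripts against 100, 123 and 120. Arg1 had 3.44, 5.25 and 3.16 in clumped cells, against 2.26, 1.43 and 2.33 in single cells, without overlap (log2 fold change 1.02 ± 0.24, adjusted p = 0.143). DESeq2 called Arg1 alone (adjusted p = 0.00971), and edgeR did without tumour 1 (adjusted p = 0.000107) or tumour 3 (6.1e-05) but not without tumour 2 (0.676).

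Gated cells with a collagen-rich cell within 25 µm and those with none within 75 µm differed in 16 of 253 genes (6.32%), 12 higher (4.74%) and 4 lower (1.58%) beside collagen-rich cells, on only 53, 503 and 162 cells without such a neighbour. Col1a1, Postn and Lrrc15 helped to define the neighbour and are no finding, though the 12 higher genes include them. Col1a1 was at 83.6 ± 13.2 in gated cells beside collagen-rich cells and 2.70 ± 0.902 in those without such a neighbour. Of the other genes, Sparc, a collagen-binding matrix protein, had 35.4, 33.2 and 30.4 against 9.14, 4.35 and 4.11 (log2 fold change 2.74 ± 0.25, adjusted p = 0.000242). How much Sparc came from the adjoining collagen-rich cells was not tested. Atf3, a stress factor, was lower (-1.19 ± 0.29, adjusted p = 0.0418), a call that leaving out any 1 tumour ended (adjusted p = 0.13 to 0.233). Without tumour 1 only 2 genes passed.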

How the data were processed

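Per the file headers, the authors deposited transcript counts for every cell without normalization, beside the cell's volume and centre, whose units were taken as µm3 and µm. How cells were outlined and transcripts decoded was not stated in the labels. Scanpy 1.9.3 appears in the submitters' processing notes. Cells were kept from 20 panel transcripts up, at volumes between 50 and 3 times the section median. Members and gene lists were chosen with earlier results of these data known. Counts were summed per tumour and arm and tested with edgeR 4.0.16 (TMM, filterByExpr, quasi-likelihood test) with tumour as a block, since both arms come from the same section. The 5 rule genes were left out, and H2-Aa where it chose an arm, but not the genes that chose collagen-rich neighbours. The test was tested on simulated data with known changes. Named genes were the 12 highest and 10 lowest called genes against other cells (6 and 6 elsewhere), with 1 sign in all 3 tumours and above the highest blank, plus the members of chosen lists that were above it. Genes given beyond that rule, such as Il1b, Cd3g and Lyve1, were chosen after their values were seen. One panel gene is not reported here, though counts over all genes include it. No doublet caller was run. Nothing says how the 3 tumours were sampled beyond their titles, and no p-value reaches beyond these tumours. The edgeR test shares its estimate of spread over genes, so its p-values do not rest on the spread between 3 tumours alone. Each SE was the size of the log2 fold change divided by the square root of the F statistic. Against other cells the lowest edgeR adjusted p was 3.92e-13 with all tumours and 3.18e-55 without tumour 1.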

Additional observations from a re-analysis of the deposited data

How the results depend on the processing

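Direction held for the margin ratio and all 9 neighbour ratios under every alternative run, and p stayed at 0.25 with 3 tumours. The neighbour ratio of gated cells was 1.72 at 15 µm, 0.91 at 50 µm and 1.61 with 4 or more gate transcripts, that of class II cells 1.19 and 0.55 and that of pericyte-gated cells 0.80 and 0.44 at 15 and 50 µm. The share of gated cells was 0.723% with 4 or more gate transcripts and 0.823% with both genes required. Without the replicate block the counts of called genes were 14 against other cells, 4 against resident-type cells, 0 against class II cells, 0 for Cx3cr1-only against Adgre1-only cells, 2 for H2-Aa positive against negative cells and 10 for the collagen-rich neighbour, where the block gave 100, 63, 37, 3, 48 and 16. Leaving out each tumour in turn gave 52 to 88, 29 to 125, 17 to 65, 0 to 45, 26 to 66, 0 to 5 (clumped against single cells) and 2 to 13 genes in the same order. Without tumour 3 the count against other cells was 52. Against resident-type cells it was 29 without tumour 1 and 29 without tumour 2, and requiring 3 resident-type transcripts gave 99. Cx3cr1-only against Adgre1-only cells gave 16 by library size alone, 12 by DESeq2 and 8 in cells of 80 to 160 transcripts, and clumped against single cells 1 by DESeq2. DESeq2 called 138 genes against other cells, 55 higher and 83 lower, and library size alone 92, 66 higher and 26 lower. The causes were not tested.

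Signs turned for some log2 fold changes, most of them near 0. Against other cells, Arg1 was -0.018 by DESeq2, -0.097 with 4 or more gate transcripts, -0.040 with both genes, -0.24 against neighbouring cells and -0.046 to 0.20 leaving out each tumour. Cd14 was 0.010 per cell volume and 0.025 with 4 or more gate transcripts. H2-K1 was 0.058 by library size, 0.018 without the block, 0.16 per volume, 0.0061 with 4 or more gate transcripts, 0.028 at 80 to 160 transcripts and -0.11 to 0.065 leaving out each tumour. Nfkb1 was 0.051 per volume. Nfkbia was 0.028 by library size, 0.13 per volume, 0.016 with 4 or more gate transcripts and -0.051 to 0.00066 leaving out each tumour. With 3 resident-type transcripts required, Csf3r was -0.31 and Spi1 -0.39. Against class II cells, Cd14 was -0.011 without the block and -0.030 to 0.044 leaving out each tumour, Tgfb1 -0.0018 and -0.087 to 0.086, and Il4ra -0.10 to 0.31 leaving out each tumour. In H2-Aa positive cells Csf1 was 0.053 by library size, 0.015 by DESeq2, 0.042 without the block and -0.027 to 0.11 leaving out each tumour. Genes below the highest blank, and a gate in tumour 3 close to the blank pair, limit what these counts resolve.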

Other observations

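Of 6 matrix protease genes, not described above, 4 rose in gated cells against other kept cells and none fell. Over all genes tested 21.7% rose and 17.8% fell. Only 1 matrix protease gene rose without tumour 1, 2 without tumour 2 and 1 without tumour 3. Mmp14, a membrane-bound collagenase, averaged 5.75 ± 0.847 per 1000 panel transcripts in gated cells and 3.61 ± 0.643 in other cells (log2 fold change 0.63 ± 0.11, adjusted p = 0.000176, higher in 3 of 3 tumours). Fn1 had 12.5, 4.41 and 18.2 in gated cells of tumours 1, 2 and 3, against 5.75, 2.97 and 10.6 in other cells (0.78 ± 0.10, adjusted p = 2.7e-06). None of 3 lipid genes (Cd36, Fabp5 and Pparg) and none of 3 proliferation genes passed. This depended on the setting: 2 lipid genes were higher per cell volume and 2 in cells of 80 to 160 transcripts, and all 3 proliferation genes were lower by DESeq2 and against cells beside gated cells. The nuclear Wnt factors Tcf7l1 and Tcf7l2 and the Wnt feedback gene Rnf43 fell by 0.45, 0.50 and 0.45 on the log2 scale (adjusted p = 0.00642, 0.000126 and 0.00276). The TGF-beta coreceptor Tgfbr3 and Bglap3 fell by 0.46 and 0.45 (adjusted p = 0.000933 and 0.00236). Of these genes, Tcf7l1 did not pass without tumour 1 or tumour 2 (adjusted p = 0.0614 and 0.063), Bglap3 without tumour 2 or tumour 3 (0.0515 and 0.0747), and Rnf43 and Tgfbr3 without tumour 3 (0.0747 and 0.0573).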
